A study of Arabidopsis thaliana with 2 samples.

Results

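Cytochrome P450 genes of *Arabidopsis thaliana* were described by their DNA methylation in *ibm1-1* mutant plants. A gene was taken as a P450 gene when its TAIR10 description contains cytochrome P450 or its symbol begins with CYP7, CYP8 or CYP9. In the Col-0 library it also needed 10 or more covered CpHpG cytosines (H is A, C or T), with 4 or more reads on average at each. By name 250 genes were found, and 249 of them met the read minimum. The gene AT3G61035 did not, with 2.65 reads per CpHpG cytosine, and the gene nearest to the minimum among those kept was AT5G36130 with 4.39. AT3G44600 carries the symbol CYP71 but codes for cyclophilin 71, which is not a P450 enzyme, so that 248 of 26445 protein-coding genes with enough reads are described here. The heme-binding signature of P450 enzymes (phenylalanine, any 2 residues, glycine, any 1, arginine, any 1, cysteine, any 1, glycine) was found in 194 of the 248 translated coding sequences.

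The Ler-0 *ibm1-1* library and the Col-0 *ibm1-1* library were each made from rosette leaves of 3-week-old plants that carried *ibm1-1* on both chromosomes for 1 generation. Plants grew on plates at 21°C in a cycle of 16 h light and 8 h dark, and 150 ng of DNA went into each library. The Ler-0 line goes back to the Col-0 mutant and 4 backcrosses to Ler-0. Both libraries carry the mutation, wild-type libraries were not used here, and with 1 library per ecotype no difference between Ler-0 and Col-0 has a replicate check.

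P450 enzymes hold a heme group that activates oxygen, and most plant members sit in the membrane of the endoplasmic reticulum. They form one of the largest enzyme families of plants and act in the synthesis and breakdown of hormones, pigments, membrane and surface lipids and defence compounds. Methylation of CpG inside the transcribed part of a gene is common in *Arabidopsis*, whereas CpHpG methylation is normally kept out of gene bodies. According to the study, only a subset of body-methylated genes needs IBM1 for this. IBM1 is a histone demethylase that acts on methylated lysine 9 of histone H3, and in *ibm1* mutants many body-methylated genes gain CpHpG methylation.

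The Ler-0 library held 313387873 calls, a mean of 6.58 per cytosine, and the Col-0 library held 371653818 calls, a mean of 8.63. Each call is 1 read over 1 cytosine, methylated or not. In P450 genes, CpHpG cytosines were read 7.49 times in Ler-0 and 9.20 times in Col-0 (medians over genes of the mean per cytosine). Chloroplast DNA of Col-0, which is taken to be unmethylated, gave 1.42% methylated calls at CpG, 2.25% at CpHpG and 1.12% at CpHpH. Col-0 gene levels near these values are thus at the background of the method. No such value was obtained for the Ler-0 library. On chromosome 3 from 250001 to 9000000, a stretch that also holds the *IBM1* gene, cytosines found only in the Ler-0 sequence had reads at 9.59% of 4182 positions in the Ler-0 library, against 80.8% of 72542 positions elsewhere. The 28 P450 genes in this stretch are named as such below, since their values in the Ler-0 library may not come from Ler-0 sequence.

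P450 genes were less methylated than protein-coding genes in general in Col-0. The level of a gene is the share of methylated calls from transcription start to end on both strands. The median P450 gene had 3.12% CpG, 2.24% CpHpG and 1.10% CpHpH methylation, against 7.05%, 2.63% and 1.09% in all 26445 genes. Pooled over all calls, P450 genes had 10.2% CpG methylation (95% Wilson interval 10.1–10.3%) and all genes had 24.96%. The pooled CpHpG level was 4.297% (4.22–4.37%) in P450 genes and 12.3% in all genes, and the pooled CpHpH level was 1.69% and 2.09%. Intervals here and below cover counting error only. Those of levels treat calls as independent, and may be too narrow because neighbouring cytosines share reads.

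A limit of 10% CpG methylation was taken from the study, which set it for 500-bp tiles of wild-type plants together with low non-CpG methylation. Here it was set for whole genes of the mutant, with no condition on the other contexts, and was met by 72 of 248 P450 genes (29.03%, 23.7–35.0%), against 45.3% of all genes. A CpHpG level of at least 5% was found in 25 P450 genes (10.1%), against 27.3% of all genes. At least 20% was found in 7 (2.82%, 1.37–5.71%), against 10.8%, and at least 50% in 1 (0.403%, 0.0712–2.25%), against 0.983%. A CpHpH level of at least 5% was found in 9 P450 genes (3.63%, 1.92–6.75%), against 4.57% of all genes. The P450 shares were below the background share at 10% CpG and at 5% and 20% CpHpG, while at 50% CpHpG and 5% CpHpH their intervals include it.

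**Figure D1:**
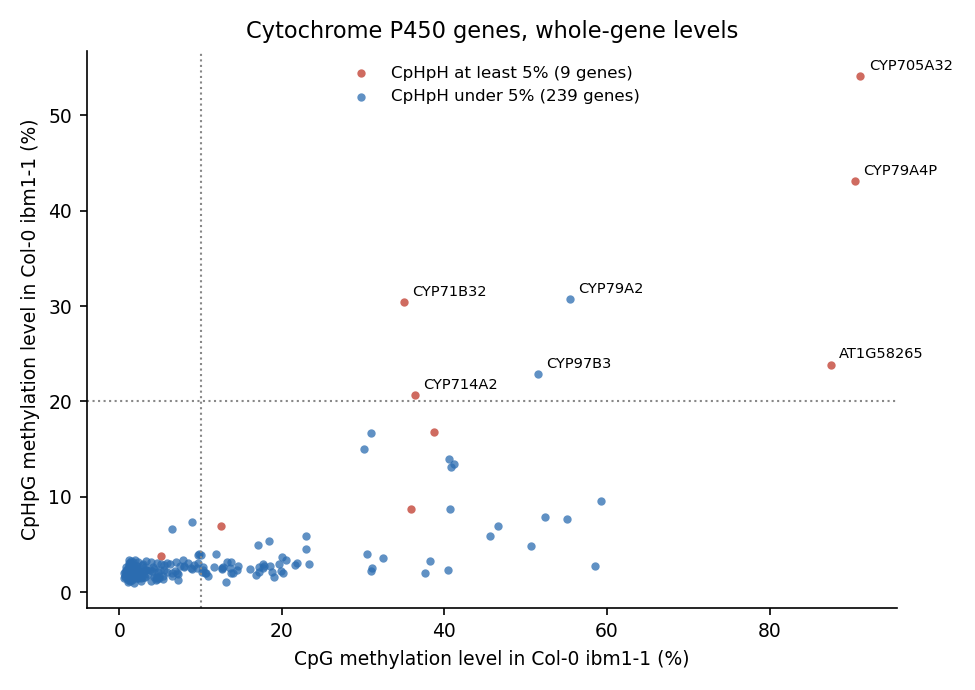
Each point is 1 of 248 P450 genes, placed by its CpG level (x axis, %) and CpHpG level (y axis, %) in the Col-0 *ibm1-1* library and coloured by a CpHpH level of at least 5% (9 genes) or under 5% (239 genes). Dotted lines mark 10% CpG and 20% CpHpG, and only the 7 labelled genes lie above the CpHpG line.

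Among genes with at least 10% CpG methylation in Col-0, a CpHpG level of at least 20% was reached by 7 of 72 P450 genes (9.72%, 4.79–18.7%) and by 23.8% of 11988 genes in all (23.1–24.6%). Under 5% CpHpG was left in 49 of the 72 (68.1%), against 42.4%. The CpG level itself was lower in these P450 genes, with a median of 20.1%, against 32.2%. By CpG level, none of 36 P450 genes at 10 to 20% and none of 7 at 20 to 30% reached 20% CpHpG, against 0.448% and 2.84% of all genes. At 30 to 40% CpG, 2 of 12 P450 genes (16.7%) did so, against 10.1%. Between 40 and 60% CpG methylation, 2 of 14 P450 genes (14.3%) and 39.8% of all genes reached 20% CpHpG, while above 60% the counts were 3 of 3 and 85.1%. The P450 strata hold few genes, and the differences within them were not tested.

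Gene structure differed as well, and its part in these counts was not tested. P450 genes had a median length of 2053 bp and 2 exons, against 2117 bp and 4 exons in all genes. At 10% CpG or more there were 10 of 47 P450 genes with 1 exon (21.3%, against 24.3% of all genes with 1 exon) and 19 of 94 with 2 exons (20.2%, against 30.7%). With 3 to 5 exons there were 33 of 80 (41.2%, against 38.7%), and with 6 to 9 exons 8 of 24 (33.3%, against 60.3%). P450 genes thus lay below all genes of the same exon number in the classes of 2 and of 6 to 9 exons, and near them in the classes of 1 and of 3 to 5 exons.

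The highest CpHpG level of a P450 gene in Col-0 was in CYP705A32 (AT3G20950, chr3:7342675-7344744, in the chromosome 3 stretch), with 91.2% CpG, 54.1% CpHpG (52.3–55.9%) and 18.5% CpHpH methylation. It had 26.0 reads per CpHpG cytosine, the highest of the P450 genes, and 86.8% of its 75-base words occur once in the genome, so that reads of similar copies may be included. The pseudogene CYP79A4P (AT5G35920, chr5:14056437-14056904) followed with 90.5%, 43.1% (38.1–48.2%) and 9.85%. Next came CYP79A2 (AT5G05260, chr5:1559608-1561802) with 55.4%, 30.7% (28.8–32.7%) and 4.42%. CYP71B32 (AT3G53305, chr3:19763618-19765268) had 35.0%, 30.4% (28.2–32.7%) and 6.95%. The short gene AT1G58265 (chr1:21610909-21611388) had 87.5%, 23.9% (19.4–28.9%) and 7.04%.

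Of the other genes above 20% CpHpG, CYP97B3 (AT4G15110, chr4:8629647-8633118), a carotenoid hydroxylase of the chloroplast, had 51.5% CpG, 22.8% CpHpG (21.2–24.6%) and 1.32% CpHpH methylation. CYP714A2 (AT5G24900, chr5:8563800-8566812), which acts on gibberellin precursors, had 36.4%, 20.6% (18.5–22.9%) and 9.003%. CYP82F1 (AT2G25160, chr2:10708993-10711281) lay just below the limit with 38.7%, 16.8% (15.1–18.6%) and 5.96%. Over the whole gene, methylation in all 3 contexts thus marked CYP705A32, CYP79A4P, CYP71B32, AT1G58265 and CYP714A2. In CYP97B3 and CYP79A2, whole-gene CpHpH methylation was under 5%. In CYP79A2, 100-bp windows of exon 2 nevertheless had up to 10.2% CpHpH in Col-0.

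In 49 P450 genes CpG methylation stood without CpHpG methylation of 5% or more. The highest CpG levels among them were 58.5% in AT4G12334 (CpHpG 2.75%), 50.7% in CYP705A27 (4.82%), 40.5% in CYP705A18 of the chromosome 3 stretch (2.37%), 38.3% in CYP86C2 (3.26%) and 37.6% in CYP86C3 (2.02%). These levels of CpG methylation overlap with those of the genes above 20% CpHpG. CYP706A7 (AT4G12330) had more CpHpH methylation (10.1%) than CpG (5.15%) or CpHpG methylation (3.75%). It was chosen after its values were seen.

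Levels of the ecotypes were compared over stretches shared between them, that is, the parts of 500-bp tiles of the Col-0 genome that were placed once in the Ler-0 sequence. A difference was called at 20 points CpHpG, 40 points CpG or 10 points CpHpH and a Benjamini-Hochberg adjusted p under 0.01 in Fisher's exact test (two-sided) on the calls. This test compares 2 libraries, not 2 ecotypes. It also treats calls as independent, although neighbouring cytosines share reads, so that its p-values may be too small. Of the 248 P450 genes, 242 had enough reads in both libraries for CpHpG, 243 for CpG and 220 for CpHpH. CYP79A4P and AT1G58265 had no tile placed in Ler-0 and were not compared.

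Few P450 genes were called different between the libraries. The median difference, Ler-0 minus Col-0, was 0.03 points CpHpG in P450 genes and 0.28 points in all 24968 genes compared. For CpG it was -0.36 points in P450 genes and 0 in all genes. CpHpG methylation was higher in Ler-0 in 2 of 242 P450 genes (0.826%, 0.227–2.96%), against 2.88% of all genes, and lower in 1 (0.413%), against 0.813%. CpG methylation was higher in Ler-0 in 2 of 243 (0.823%), against 0.559%, and lower in 4 (1.65%, 0.642–4.16%), against 0.755%. CpHpH methylation was higher in Ler-0 in 1 of 220 (0.455%), against 0.144% of all genes. It was lower in none of the 220, with an interval up to 1.72%, and this share was not computed for all genes. The counts are small, and the 95% Wilson interval of each of the 5 shares above 0 includes the background share.

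**Figure D2:**
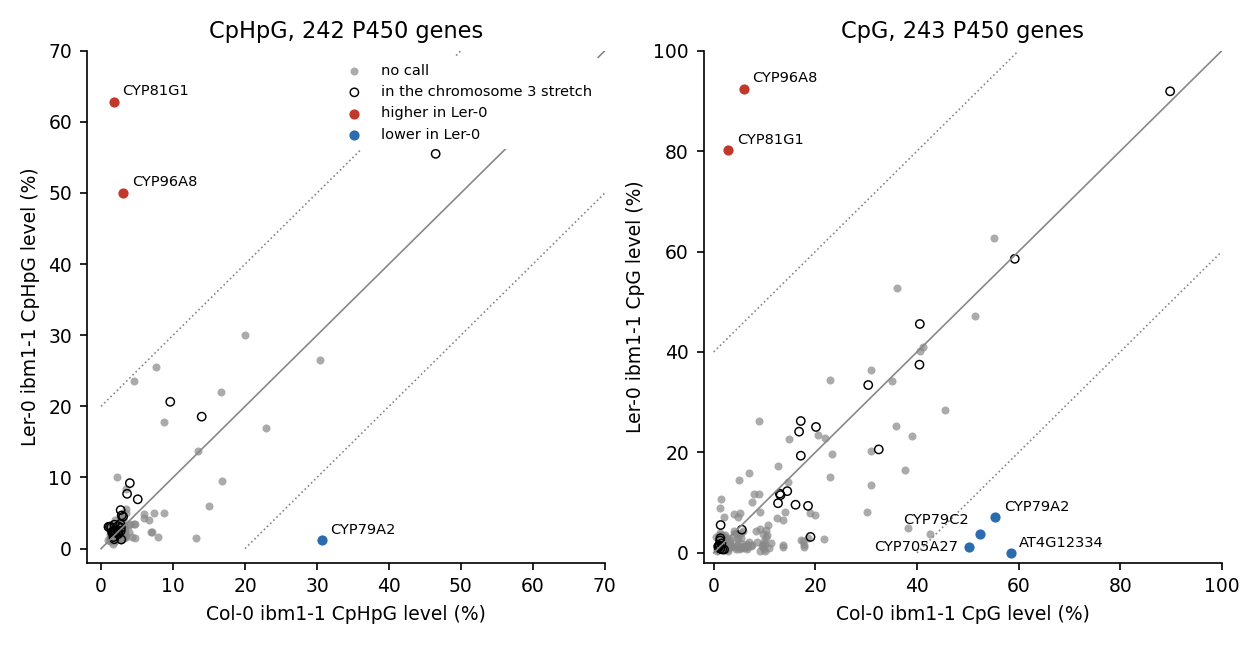
Each point is 1 P450 gene, with its level in the Ler-0 library (y axis, %) against the Col-0 library (x axis, %) over shared stretches, for CpHpG (left, 242 genes) and CpG (right, 243 genes). The solid line marks equal levels and dotted lines the limits of 20 and 40 points; red and blue points are the genes called higher or lower in Ler-0, and open circles are the genes of the chromosome 3 stretch, which all lie between the dotted lines.

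CYP81G1 and CYP96A8 were methylated in the Ler-0 library and near background in the Col-0 library. CYP81G1 (AT5G67310, chr5:26855216-26857086, minus strand, 2 exons) had 62.8% CpHpG methylation in Ler-0 (60.8–64.9%) and 1.78% in Col-0 (1.199–2.64%). Its CpG level was 80.2% in Ler-0 and 2.88% in Col-0, and its CpHpH level 15.9% and 1.15%. The adjusted p of Fisher's exact test was 2.48e-146 for CpHpH and too small to be represented for the other contexts. CYP96A8 (AT1G47620, chr1:17507893-17509731, minus strand, 1 exon) belongs to the family of the wax alkane hydroxylase CYP96A15. It had 50.05% CpHpG methylation in Ler-0 (47.1–53.0%) and 3.11% in Col-0 (1.98–4.86%, Fisher's exact test, adjusted p = 3.25e-100). Its CpG level was 92.4% in Ler-0 and 5.91% in Col-0. Its CpHpH level was 10.8% in Ler-0 and 1.11% in Col-0, just under the 10-point limit.

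CYP79A2 was the P450 gene with lower methylation in Ler-0 in both contexts. The enzyme turns phenylalanine into its oxime, the entry to benzylglucosinolate. The gene lies on the minus strand with 2 exons, and its tiles showed 0 differences between the ecotypes in the bases that could be compared. Its CpHpG level was 1.21% in Ler-0 (0.694–2.10%) and 30.7% in Col-0 (28.8–32.7%, Fisher's exact test, adjusted p = 2.77e-103). Its CpG level was 7.15% in Ler-0 (5.99–8.51%) and 55.4% in Col-0 (53.7–57.2%, Fisher's exact test, adjusted p = 2.06e-258). Its CpHpH level was 1.33% in Ler-0 and 4.42% in Col-0, a difference under the limit.

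The other 3 genes called were lower in Ler-0 in CpG alone. CYP79C2 (AT1G58260, chr1:21605752-21607995) had 3.66% CpG in Ler-0 and 52.3% in Col-0 (Fisher's exact test, adjusted p = 4.85e-231), with 1.58% and 7.86% CpHpG. CYP705A27 (AT1G50520, chr1:18719378-18721219) had 1.16% CpG in Ler-0 and 50.2% in Col-0 (Fisher's exact test, adjusted p = 1.29e-93), measured over 964 of its 1842 bp. AT4G12334 (chr4:7320602-7321061) had 0 methylated of 142 CpG calls in Ler-0, which allows a level of up to 2.11%, and 58.5% in Col-0 (Fisher's exact test, adjusted p = 6.93e-39). CYP702A1 showed a like pattern, with 1.79% CpG in Ler-0 and 46.6% in Col-0, but had too few reads for the CpG comparison.

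In each of these 6 genes, the library with the higher methylation also had more reads per CpG cytosine over the shared stretches. Col-0 was the deeper library in general, with a mean of 8.63 calls per cytosine against 6.58 in Ler-0. More reads in Col-0 are thus the general direction for the genes higher there, and only CYP81G1 and CYP96A8 go against it. CYP81G1 had 21.7 reads in Ler-0 and 13.6 in Col-0, and CYP96A8 had 15.5 and 8.89. CYP79A2 had 10.2 reads in Ler-0 and 18.9 in Col-0, CYP79C2 8.91 and 14.4, CYP705A27 8.93 and 12.5, and AT4G12334 5.07 and 9.89. In CYP79A2 and CYP81G1 the gap was largest in the methylated part. The 100-bp window of CYP79A2 from 1600 bp had 121 CpG calls in Ler-0 and 472 in Col-0. That from 200 bp had 127 and 156, although the methylated window from 1400 bp had 298 and 365. In CYP81G1 the window from 700 bp had 369 and 139, and that from 1300 bp 114 and 144. Of CYP96A8, 86.7% of the 75-base words occur once in the Col-0 genome. The part of read depth and of further copies of these sequences in the differences was not tested.

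In tiles whose sequence was identical between the ecotypes in the bases that could be compared, only CYP79A2 among the 6 kept its call, with all its tiles identical. CYP81G1 had 2.81% CpHpG in Ler-0 and 1.03% in Col-0 there, over 178 and 194 calls, and its methylated part lies outside these tiles. CYP79C2 had 9.28% CpG in Ler-0 and 13.4% in Col-0 there. CYP96A8, CYP705A27 and AT4G12334 had no identical tile.

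To show where the methylation of these genes lies at the level of bases, the 100-base stretches with the most methylated CpHpG cytosines are given for the 3 genes called in CpHpG and for the intron of CYP714A2. They are printed 5′ to 3′ on the strand of the gene from the Col-0 reference (RefSeq, TAIR10.1), and capitals mark the CpHpG trinucleotides on that strand whose cytosine was methylated at 50% or more, in the Ler-0 library for CYP81G1 and CYP96A8 and in the Col-0 library for CYP79A2 and CYP714A2. The stretches were chosen after their values were seen.
CYP81G1: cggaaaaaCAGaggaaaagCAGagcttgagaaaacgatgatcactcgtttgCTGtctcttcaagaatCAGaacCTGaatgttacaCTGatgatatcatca
CYP96A8: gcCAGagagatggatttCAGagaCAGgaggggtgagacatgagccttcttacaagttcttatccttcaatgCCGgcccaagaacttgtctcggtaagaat
CYP79A2: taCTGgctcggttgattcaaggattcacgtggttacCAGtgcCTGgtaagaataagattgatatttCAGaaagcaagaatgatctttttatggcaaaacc
CYP714A2: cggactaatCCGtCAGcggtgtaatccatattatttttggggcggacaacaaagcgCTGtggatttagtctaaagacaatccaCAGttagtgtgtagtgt

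The stretch of CYP81G1 (chr5:26856021-26856120, exon 1) had all 13 of its CpHpG cytosines on both strands methylated in Ler-0, with 199 of 223 calls (89.2%), against 1 of 99 calls in Col-0 (1.01%). In that of CYP96A8 (chr1:17508278-17508377), 7 of 9 cytosines were methylated in Ler-0, with 69.6% of 148 calls, against 2.73% of 110 calls in Col-0. In that of CYP79A2 (chr5:1559830-1559929, exon 2), none of 29 calls was methylated in Ler-0, which allows up to 10.3%, against 117 of 147 calls in Col-0 (79.6%), where 8 of 9 cytosines were methylated. The stretch of CYP714A2 (chr5:8566007-8566106, intron 1) was methylated in both libraries, with 68.7% of 67 calls in Ler-0 and 91.7% of 180 calls in Col-0.

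Along these genes the methylation was not spread evenly. In 100-bp windows of CYP81G1, the Ler-0 CpG level was 86.6–97.6% from 600 to 1300 bp after the start, and the CpHpG level there was 68.6–88.5%. From 1300 bp on, CpHpG was at most 17.1% in Ler-0, and the first 100 bp had 0% of 25 CpG calls. The part from 100 to 600 bp was not placed in Ler-0, so that the upstream edge of the methylated part was not seen. The highest Col-0 window of CYP81G1 had 14.6% CpG.

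In CYP96A8 the Ler-0 methylation ran through the whole gene, with 83.9–100% CpG in every window with enough calls. It also continued beyond both ends, with 95.8% of 48 CpG calls in the 500 bp before the start, against 4.17% of 24 in Col-0. CYP79A2 in Col-0 was methylated in exon 2 and past the end of the gene, with 81.8–96.6% CpG in the windows from 1400 to 2300 bp. In Ler-0 the same windows had at most 13.8%. In exon 1, the window from 300 bp had 10.2% CpG in Ler-0 and 46.5% in Col-0, and the next one had 31.6% in Ler-0 and 33.9% in Col-0. CpHpG in these windows was at most 1.65% in both libraries. In CYP97B3, both libraries had CpHpG methylation between 1200 and 2100 bp, with up to 41.4% in Ler-0 and up to 52.2% in Col-0.

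**Figure D3:**
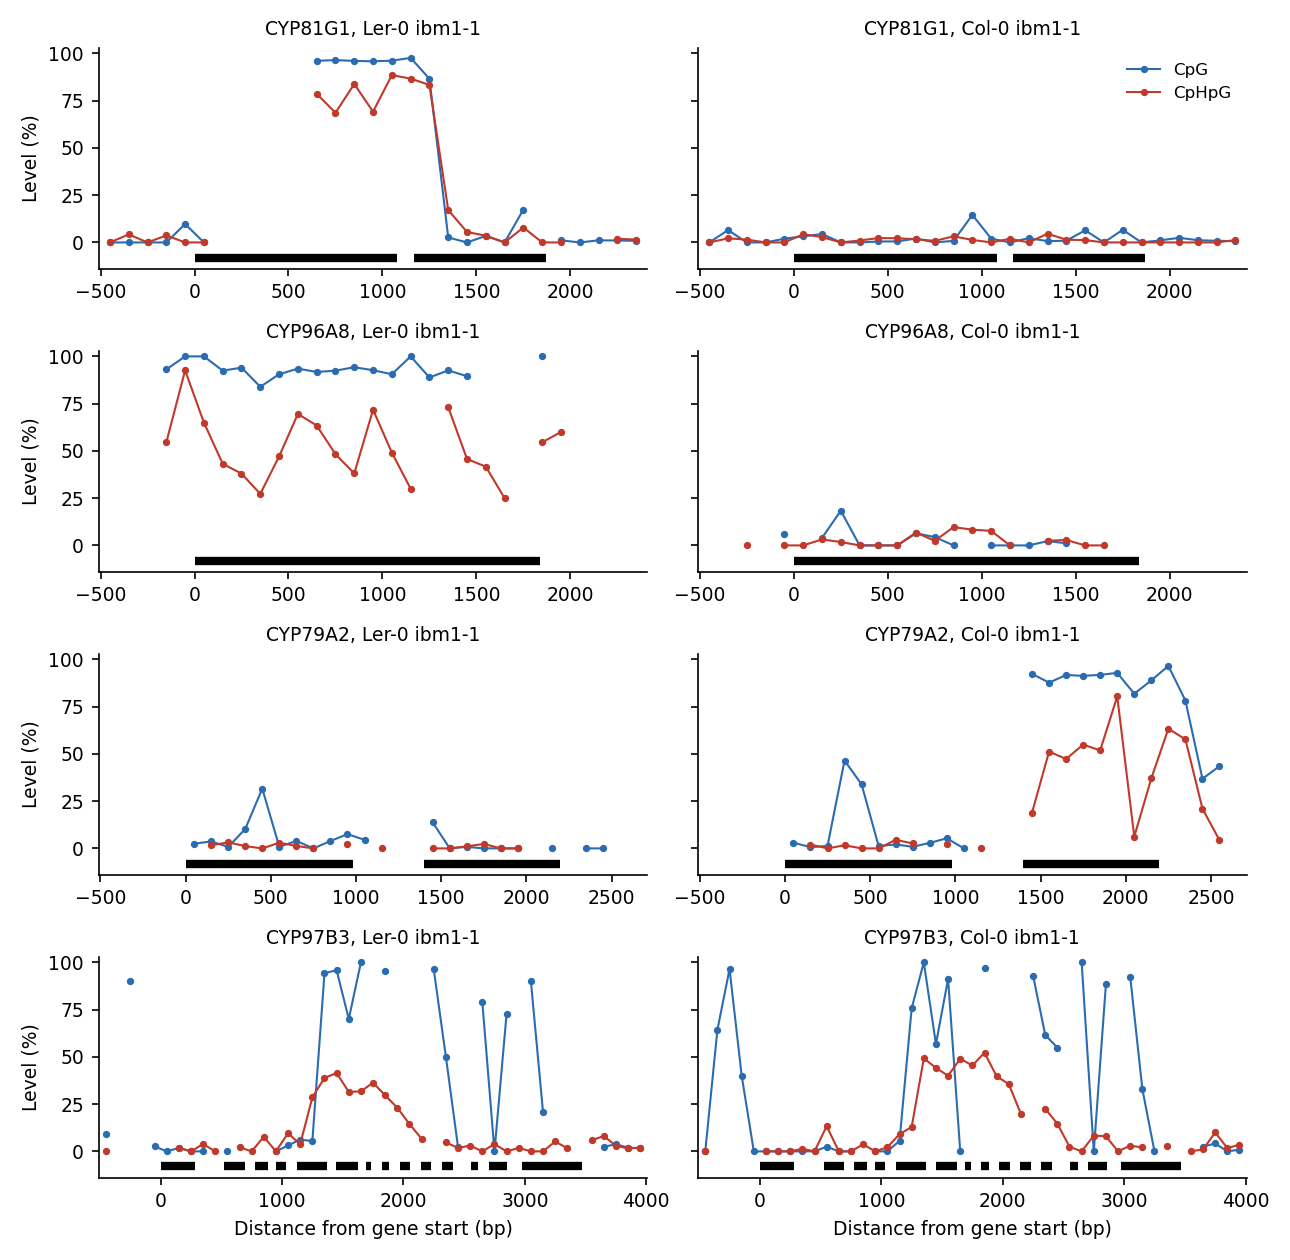
CpG (blue) and CpHpG (red) levels (%, y axis) in 100-bp windows are plotted against the distance from the gene start (bp, x axis) in the Ler-0 library (left) and the Col-0 library (right) for 4 P450 genes, with exons as black bars and gaps where a window was not placed or had too few calls. CYP81G1 and CYP96A8 are high in Ler-0, CYP79A2 is high from 1400 bp on in Col-0, and CYP97B3 has a methylated middle in both.

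CpCpG sites have an external cytosine, in the CpHpG context, followed by an internal cytosine in the CpG context. The study asked whether sites with a methylated internal cytosine go with CpHpG gain in *ibm1* mutants, and counted such sites in both ecotypes. For each named gene with a high or differing CpHpG level, the CpCpG site with the most reads was taken, and 6 of the 16 sites are shown to compare the methylation of both cytosines. The 6 were chosen after their values were seen, from sites with a methylated internal cytosine in 1 or both libraries. Sites are printed 5′ to 3′ on the strand of the CpCpG, with the CpCpG in capitals, from the same reference.
CYP81G1: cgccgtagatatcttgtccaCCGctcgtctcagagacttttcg
CYP96A8: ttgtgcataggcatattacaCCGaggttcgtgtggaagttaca
CYP79A2: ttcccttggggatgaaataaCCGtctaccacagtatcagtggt
CYP79C2: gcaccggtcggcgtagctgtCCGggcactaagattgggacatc
CYP97B3: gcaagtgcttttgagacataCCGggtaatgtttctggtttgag
CYP71B32: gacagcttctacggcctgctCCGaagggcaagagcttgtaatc

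At the CYP81G1 site (chr5:26856454-26856496, exon 1), 47 of 51 reads in Ler-0 and 0 of 31 in Col-0 showed a methylated internal cytosine, and 18 of 50 and 0 of 31 a methylated external one. A count of 0 of 31 allows up to 9.68%. At the CYP96A8 site (chr1:17508966-17509008) the internal cytosine had 29 of 30 reads in Ler-0 and 2 of 26 in Col-0, and the external cytosine 9 of 28 and 0 of 25. The CYP79A2 site (chr5:1560128-1560170, exon 2) had 0 of 13 internal and 0 of 13 external reads methylated in Ler-0, against 53 of 56 and 11 of 56 in Col-0. At these 3 sites the external cytosine was methylated in a smaller share of reads than the internal one.

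The CYP79C2 site (chr1:21607778-21607820, exon 3) had 1 of 20 internal and 0 of 19 external reads methylated in Ler-0, against 56 of 56 and 9 of 52 in Col-0. The CYP97B3 site (chr4:8630690-8630732, intron 11) had 1 of 24 internal and 1 of 25 external reads in Ler-0, against 30 of 31 and 5 of 30 in Col-0, although the gene was not called. The CYP71B32 site (chr3:19764891-19764933, exon 3) was methylated in both libraries. It had 25 of 25 internal and 12 of 25 external reads in Ler-0, and 44 of 45 internal and 27 of 43 external reads in Col-0. Some of the sites not shown had no methylated internal cytosine in either library. They were those of CYP714A2 (0 of 18 reads in Ler-0 and 0 of 38 in Col-0), CYP81K1 (0 of 36 and 0 of 34) and CYP79A3P (0 of 17 and 0 of 44). The other sites had methylated internal reads in Col-0. Internal and external counts were 75 of 78 and 54 of 79 in CYP705A32, and 42 of 47 and 13 of 46 in CYP82F1. CYP79A4P had 17 of 20 and 3 of 20, and CYP705A28 24 of 30 and 3 of 30. CYP86C4 had 29 of 32 and 1 of 30, and AT1G58265 54 of 63 and 5 of 62. CYP735A1 had 16 of 41 and 0 of 40. In Ler-0 the internal count was 14 of 16 in CYP86C4. CYP705A28 (chromosome 3 stretch), CYP82F1 and CYP735A1 had 0 of 41, 0 of 20 and 0 of 28.

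Over all CpCpG sites of P450 genes with at least 5 reads on both cytosines, the internal cytosine was methylated (at least 50%) at 463 of 5843 sites in Col-0 (7.92%, 7.26–8.64%), against 22.6% of the sites of all genes. Both cytosines were methylated (external at least 25%) at 1.80% (1.49–2.17%), against 8.12%, and the internal one alone at 6.13%. Of the sites with a methylated internal cytosine, 22.7% (19.1–26.7%) had the external one methylated too in P450 genes, against 35.9% in all genes. Over shared stretches, the internal cytosine was methylated at 5.34% of P450 sites in Ler-0 (4.74–6.003%) and at 7.30% in Col-0 (6.64–8.00%). Of these, 35.5% (29.9–41.5%) had both cytosines methylated in Ler-0 and 18.5% (15.1–22.6%) in Col-0. In all genes the same shares were 41.6% in Ler-0 and 34.8% in Col-0.

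By trinucleotide, the pooled level over shared stretches of P450 genes was 6.37% at CpApG in Ler-0 and 4.72% in Col-0, and 5.46% at CpTpG in Ler-0 and 4.12% in Col-0. At the external cytosine of CpCpG it was 3.10% in Ler-0 and 2.88% in Col-0. All genes had 19.3% in Ler-0 and 13.5% in Col-0 at CpApG, and 8.88% and 7.46% at CpCpG. P450 genes thus had CpApG above CpCpG in both libraries, as all genes did. In the 68 compared P450 genes with at least 10% CpG in Col-0, CpApG was 9.56% in Ler-0 and 8.38% in Col-0. External CpCpG was there lower in Ler-0, with 5.55% against 6.18%. These 68 genes were chosen by their Col-0 CpG level.

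Counted over the shared stretches of the 242 genes, CpG methylation of at least 10% was found in 43 P450 genes in Ler-0 (17.8%, 13.5–23.1%), against 43.6% of all genes, and in 66 in Col-0 (27.3%, 22.0–33.2%), against 45.8%. It was found in both libraries in 34 genes, in Ler-0 alone in 9 and in Col-0 alone in 32. This overlap was not computed over all genes, so these counts have no background share and are not read as a trait of P450 genes. The 28 genes of the chromosome 3 stretch held 13 of the genes at this limit in Ler-0 and 17 of those in Col-0. Elsewhere, 30 and 49 of 214 genes met it. Shares of all genes inside and outside the stretch were not computed. CpHpG methylation of at least 20% was found in 9 P450 genes in Ler-0 (3.72%), against 14.4% of all genes, and in 4 in Col-0 (1.65%), against 10.4%. CYP71B32 and, in the chromosome 3 stretch, CYP705A32 were the 2 in both, again without a share over all genes. Pooled over calls, P450 genes had 7.79% CpG methylation in Ler-0 and 9.37% in Col-0, and all genes had 25.4% and 24.1%. The pooled CpHpG level of P450 genes was 5.11% in Ler-0 and 3.98% in Col-0, and of all genes 17.1% and 12.05%. The P450 level in Ler-0 includes CYP81G1 and CYP96A8, with 62.8% and 50.05% CpHpG, and their share in it was not computed. The median P450 gene had 2.30% CpHpG in Ler-0 and 2.23% in Col-0, against 2.85% and 2.63% in all genes.

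The genes with the next largest differences did not reach the limits. CYP81K1 had 23.5% CpHpG in Ler-0 and 4.52% in Col-0, beside 34.4% and 22.9% CpG. CYP86C4 had 25.5% CpHpG in Ler-0 and 7.65% in Col-0, beside 62.8% and 55.1% CpG. CYP705A28, in the chromosome 3 stretch, had 20.6% and 9.61% CpHpG with near-equal CpG levels of 58.6% and 59.3%. In the other direction, the pseudogene CYP79A3P had 1.42% CpHpG in Ler-0 and 13.2% in Col-0, and CYP735A1 had 6.02% and 15.01%. The CpG levels of these 2 genes were also apart, with 3.79% in Ler-0 and 42.5% in Col-0 in CYP79A3P and 8.21% and 30.1% in CYP735A1. AT5G36130 had 26.2% CpG in Ler-0 and 8.97% in Col-0, which was the largest positive CpG difference below the limit.

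By family, the share of genes with at least 10% CpG in Col-0 is given beside 29.03% of all P450 genes and 45.3% of all protein-coding genes, with no test between families. It was reached by 7 of 9 CYP72 genes (77.8%), all 3 CYP98 and all 3 CYP704 genes, 2 of 3 CYP97 and 2 of 3 CYP708 genes and 4 of 9 CYP79 genes (44.4%). Of the larger families, CYP705 had 9 of 24 (37.5%), CYP86 3 of 10 (30%), CYP71 13 of 50 (26%) and CYP81 4 of 16 (25%). None of 7 CYP706, 6 CYP78 and 6 CYP94 genes reached it. By clan, the counts were 39 of 148 in the CYP71 clan (26.4%), 9 of 19 in the CYP72 clan (47.4%), 7 of 24 in the CYP85 clan (29.2%) and 7 of 32 in the CYP86 clan (21.9%). Over shared stretches the CYP71 clan had 19 such genes in Ler-0 and 36 in Col-0. In the CYP72 clan there were 9 in each library, but 7 of the 9 are CYP72A genes of the chromosome 3 stretch. Outside it, CYP714A2 met the limit in both libraries, CYP721A1 in Ler-0 alone and CYP735A1 in Col-0 alone.

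**Figure D4:**
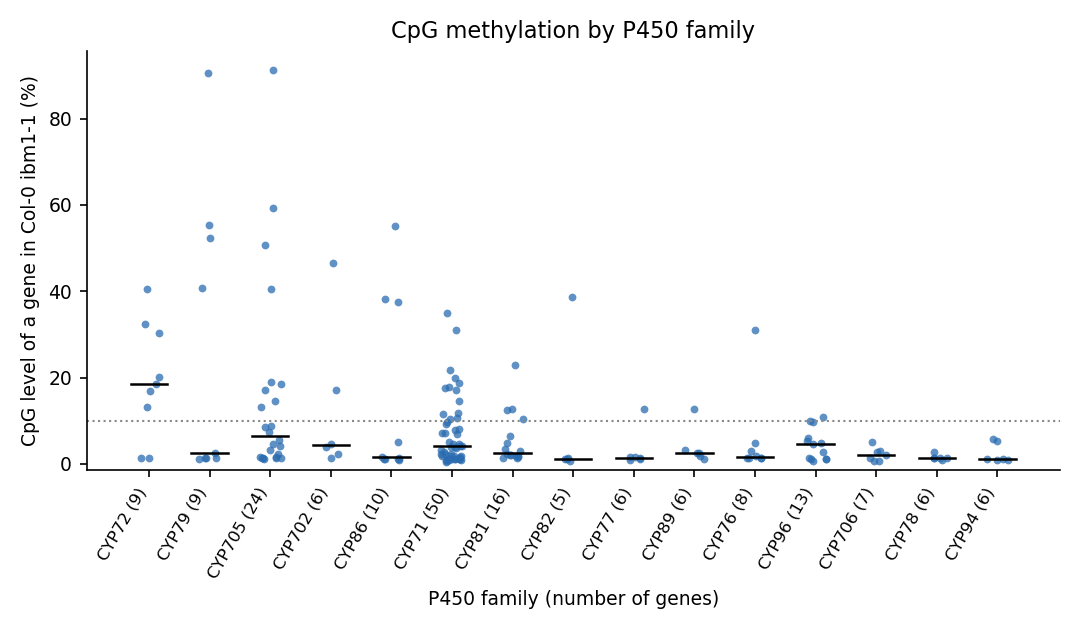
CpG level of each gene in the Col-0 *ibm1-1* library (y axis, %) by P450 family (x axis, with the number of genes), for families of at least 5 genes; bars mark medians and the dotted line 10%. CYP72 has the highest median (18.4%), and no gene of CYP706, CYP78 or CYP94 reaches the line.

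Glucosinolates are the sulfur-rich defence compounds of the cabbage family. Of 10 genes that make them and matched the name rule, CYP79A2 alone reached 10% CpG in Col-0. This was 10% of them, beside 29.03% of P450 genes and 45.3% of all genes. None of the 10 reached 10% CpG in Ler-0. The next highest level in Col-0 was in CYP83A1, which oxidises oximes, with 1.11% CpG in Ler-0 and 5.51% in Col-0. Of the CYP79 enzymes, those that act on tryptophan, CYP79B2 and CYP79B3, had 1.59% and 1.67% CpG in Ler-0 and 1.37% and 1.35% in Col-0. Those that act on methionine derivatives, CYP79F1 and CYP79F2, had 1.66% and 1.48% in Ler-0 and 2.62% and 1.05% in Col-0. The 4 methylated CYP79 genes were CYP79A2, CYP79C2 and the pseudogenes CYP79A3P and CYP79A4P. The 3 of them that could be compared had at most 7.15% CpG in Ler-0. CYP79A3P and CYP79A4P are neighbours on chromosome 5, and CYP79C2 is next to AT1G58265 on chromosome 1.

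Hormone genes are counted here only where they matched the name rule. At least 10% CpG in Col-0 was found in 2 of 3 gibberellin genes and 2 of 3 cytokinin and strigolactone genes, beside 29.03% of P450 genes and 45.3% of all genes. CYP88A3, which oxidises ent-kaurenoic acid on the way to gibberellin, had 41.0% CpG in Ler-0 and 41.2% in Col-0, and 13.8% and 13.5% CpHpG. CYP714A2 had 30.03% CpHpG in Ler-0 and 19.98% in Col-0, and its neighbour CYP714A1 had 2.67% and 3.14%. CYP735A1, which makes trans-zeatin type cytokinins, is described above, and its paralog CYP735A2 had 1.80% CpG in Ler-0 and 0.936% in Col-0. CYP711A1, the strigolactone gene MAX1, had 19.7% CpG in Ler-0 and 23.3% in Col-0 with 2.98% and 3.01% CpHpG. None of 4 abscisic acid hydroxylases (CYP707A), 6 brassinosteroid genes, 3 jasmonate genes of the CYP94 family and 6 organ growth genes of the CYP78A family reached this limit in Col-0, where the highest level was 3.18%. None of those compared did so in Ler-0, where 5 of the 6 brassinosteroid genes were compared.

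Of the genes that matched the name rule in the lists for carotenoid, phenylpropanoid and sterol synthesis, 2 of 3, 3 of 5 and 1 of 5 reached 10% CpG in Col-0. This stands against the same 29.03% of P450 genes and 45.3% of all genes. In the carotenoid hydroxylases, CYP97B3 had 17.0% CpHpG in Ler-0 and 22.8% in Col-0, CYP97A3 had 8.31% and 3.43%, and LUT1 had 2.73% and 2.43%. CYP98A3, which hydroxylates the ring of p-coumaroyl esters for lignin, had 6.62% CpG in Ler-0 and 13.6% in Col-0. Its relatives CYP98A8 and CYP98A9, neighbours on chromosome 1, act in making spermidine conjugates of pollen. CYP98A8 had 17.9% CpHpG in Ler-0 and 8.68% in Col-0 at CpG levels of 40.1% and 40.7%, while CYP98A9 had 3.31% and 3.09% CpHpG at 22.9% and 21.9% CpG. CYP51G1, the sterol 14-demethylase, had 28.4% CpG in Ler-0 and 45.5% in Col-0, and 4.24% and 5.94% CpHpG. The 4 sterol desaturases of the CYP710A family lay between 1.15% and 1.66% CpG in Col-0.

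Among 11 genes for cutin, suberin, wax and the pollen wall, 1 reached 10% CpG in Col-0 (9.09%, beside 29.03% of P450 genes and 45.3% of all genes). This was CYP704B1, a fatty acid hydroxylase of the pollen wall, with 13.4% CpG in Ler-0 and 31.0% in Col-0 and 3.19% and 2.27% CpHpG. Of 5 genes in triterpene clusters, 1 reached it. CYP708A2, the thalianol hydroxylase, had 25.3% CpG in Ler-0 and 35.9% in Col-0 and 5.05% and 8.74% CpHpG. Its neighbour CYP705A5 had 2.31% CpG in Ler-0 and 2.32% in Col-0. None of 4 camalexin and indole defence genes and 4 terpenoid genes reached 10% CpG in Col-0.

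Neighbouring P450 genes, which often arose by duplication in place, could differ widely. Of 118 genes that lie next to another P450 gene, 34 (28.8%) reached 10% CpG in Col-0, against 38 of 130 (29.2%) that do not. They form 39 runs of neighbours, the longest with 9 CYP71B genes, where CpG levels were between 0.954% and 7.17%. In the run from CYP72A7 to CYP72A13 in the chromosome 3 stretch, 5 of 6 genes were methylated, with 20.1%, 30.4%, 32.5%, 40.6% and 18.4% CpG in Col-0. CYP72A8, the second gene of the run, had 1.36%. The run of CYP706A4 to AT4G12334 held 1 methylated gene of 5. CYP86C3 and CYP86C4, close together on chromosome 1, had 16.6% and 62.8% CpG in Ler-0 and 37.6% and 55.1% in Col-0.

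The 28 P450 genes of the chromosome 3 stretch had the CYP72A and CYP705A runs among them. Of the 28, 17 (60.7%) reached 10% CpG in Col-0, against 55 of 220 elsewhere (25%). The share over all protein-coding genes was 45.3%, and that of all genes in the stretch was not computed. None of the 28 was called in CpG or CpHpG, against 6 of 220 elsewhere. How many of all genes in the stretch were called was not computed. The largest differences of the 28 were 15.9 points CpG and 11.03 points CpHpG, against 86.5 and 61.1 points elsewhere. A largest value tends to rise with the number of genes, and 220 genes were taken elsewhere. The median size of the CpG difference was 2.14 points in the stretch and 1.17 points elsewhere. CYP705A32 had 91.9% CpG in the Ler-0 library and 89.8% in Col-0, and 55.5% and 46.5% CpHpG, over the 1244 of its 2070 bp that were shared.

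Within the 72 P450 genes with at least 10% CpG in Col-0, introns were more methylated than exons. The CpG level was 41.5% in introns (40.3–42.8%) and 29.1% in exons (28.8–29.4%), the CpHpG level 16.1% and 7.69%, and the CpHpH level 6.02% and 2.22%. In all 11988 such genes the levels were 40.4% in introns and 41.0% in exons for CpG and 18.6% and 16.6% for CpHpG. A few genes carried the intron level. CYP705A32, CYP97B3, CYP714A2, CYP735A1 and CYP71B32 held 22.2%, 17.2%, 12.8%, 12.1% and 7.96% of all methylated intron CpHpG calls. In CYP714A2, introns had 64.4% and exons 8.49% CpHpG methylation.

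For the 68 of these genes that were compared, the gene was divided into 10 equal parts. In part 3, P450 genes had 10.3% CpG in Ler-0 and 17.6% in Col-0, against 34.2% and 33.0% in all genes. The P450 genes had the highest CpG level in part 6 in Ler-0 (31.0%) and in part 8 in Col-0 (41.7%), and all genes in part 7 (58.5% in Ler-0 and 58.1% in Col-0). For CpHpG the highest level was in part 5, with 15.6% in Ler-0 (14.8–16.5%) and 12.4% in Col-0 (11.8–13.1%) in P450 genes and 32.1% and 23.4% in all genes. In the 500 bp before the start, P450 genes had 2.46% CpG in Ler-0 and 4.08% in Col-0, against 18.5% and 19.0% in all genes. Both sets of genes were chosen by their Col-0 CpG level, and the part of this choice in the differences between the libraries was not tested.

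**Figure D5:**
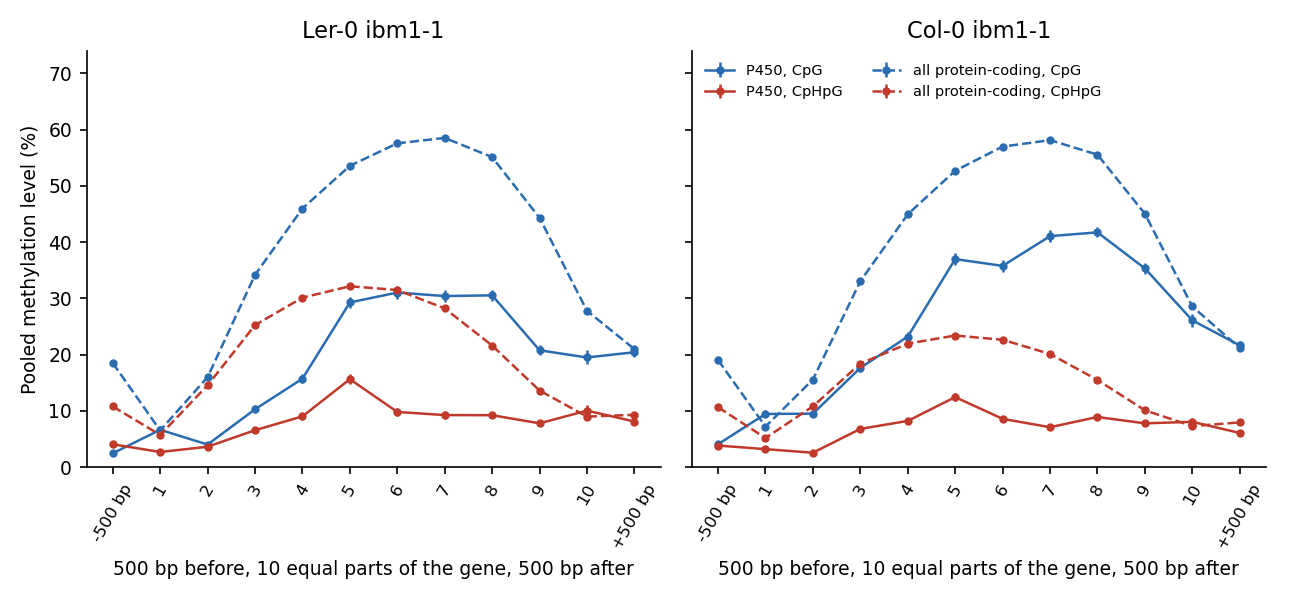
Pooled CpG (blue) and CpHpG (red) levels (y axis, %) in the 500 bp before the gene, in 10 equal parts of the gene and in the 500 bp after it (x axis), in Ler-0 (left) and Col-0 (right), for 68 P450 genes (solid) and 11477 protein-coding genes (dashed) with at least 10% CpG in Col-0; vertical bars are 95% Wilson intervals. P450 genes lie below all genes through the middle of the gene in both libraries and both contexts.

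In 500-bp tiles with at least 250 bp in a gene, 184 of 894 P450 tiles (20.6%) had at least 10% CpG in Col-0, against 42.3% of 103822 tiles of all genes. Of these 184 tiles, 5 (2.72%) had at least 50% CpHpG in Ler-0 and 3 (1.63%) in Col-0, against 12.1% and 5.45% in all genes. They lie in CYP705A32, CYP714A2, CYP71B32, CYP76C6 and CYP81D1. Tiles were chosen by their Col-0 CpG level, which leaves out those with CpG methylation in Ler-0 alone.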

How the data were processed

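Whole-genome bisulfite sequencing of 1 Ler-0 and 1 Col-0 *ibm1-1* library was analysed. The authors trimmed 75-base paired reads, aligned them to TAIR10 (Col-0) or a PacBio Ler-0 assembly and collapsed duplicated reads; the submitters' processing notes name Trimmomatic and Bismark, with versions not given in the sources used here. For each cytosine, the deposited files hold counts of methylated and unmethylated reads, not normalized, with Col-0 and Ler-0 positions in their own genomes. Incomplete conversion raises all levels, and depth sets their precision: levels are methylated calls over all calls with 95% Wilson intervals.

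The Ler-0 sequence was rebuilt from the cytosines of its own file, with 27.3% of bases unresolved as A or T. Col-0 tiles of 500 bp were aligned to it with bwa 0.7.19 (212245 of 238296 placed once; mapping quality and score gap at least 20, at least 400 bp aligned over at most 600). Python 3.11.15, numpy 2.4.6, scipy 1.17.1, pandas 2.3.3 and matplotlib 3.10.9 were used. Genes were compared with at least 10 covered cytosines and a mean of 4 reads in both libraries, by Fisher's exact test with Benjamini-Hochberg adjustment over all protein-coding genes. The placement of tiles and the calls were tested on simulated data. The simulated calls were independent, so this cannot check the effect of shared reads or of spread between plants. A CpCpG site needed 5 reads on both cytosines.

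Genes named are the 8 with the highest CpHpG level in Col-0, the 5 with the largest and the 5 with the lowest CpHpG difference, the 3 of each kind for CpG, the 5 with the highest CpG level beside CpHpG under 5%, and members of role lists with at least 10% CpG; further genes named for family, neighbours or a read limit were chosen after their values were seen. Of 81 names in the role lists, 72 were members. The other 9 did not match the name rule, so counts by role leave them out. They were CYP85A1, CYP85A2, CYP701A3, CYP88A4, CYP74A, CYP74B2, CYP81F1, CYP73A5 and CYP84A1. The brassinosteroid, gibberellin, jasmonate and phenylpropanoid lists lost 2 names each, and the glucosinolate list 1. Members and lists were chosen with earlier results of these data known. Alternatives were another aligner (minimap2 2.31), other limits and read minimums, thinning of the Col-0 calls by a single ratio of 0.871 (to the Ler-0 mean at CpHpG cytosines of the genes compared), which leaves differences in depth at single genes, whole tiles and tiles identical in both ecotypes. The Ler-0 assembly sequence and wild-type libraries were not used here.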

Additional observations from a re-analysis of the deposited data

How the results depend on the processing

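No paired analysis was possible because each ecotype has 1 library. Of 55 alternatives, 43 left the value within 1.5 times the count or within its interval. With a CpG limit of 20%, 36 P450 genes in Col-0 met it in place of 72, against 33.5% of all genes. With CpHpG limits of 10% and 30%, 13 and 4 met them in place of 7, against 18.9% and 5.63%. With difference limits of 10 points CpHpG and 20 points CpG, CpHpG was higher in Ler-0 in 6 of 242 genes and lower in 2, against 9.86% and 2.85% of all genes, and CpG was lower in 8 of 243, against 3.26%. With limits of 30 and 50 points, CpHpG was lower in 0 genes (all genes 0.316%), since CYP79A2 differed by -29.5 points. CpG was then lower in 1 gene, AT4G12334 (all genes 0.523%), and higher in 2, so that the lower calls no longer outnumbered the higher ones. In identical tiles alone, CpHpG was higher in 1 of 165 genes, CYP714A2 (all genes 3.81%). CpG was there higher in 0 of 167 (0.757%) and lower in 2, CYP79A2 and CYP82F1 (0.769%). Fewer genes and parts of genes are compared in that setting. With an external cytosine limit of 50%, both cytosines were methylated at 0.890% of CpCpG sites in place of 1.80%. Each level rests on 1 library, so spread between plants is not known, and genes at a few percent cannot be told from incomplete conversion.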
